A study of Drosophila melanogaster with 6 samples.

Results

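The 10 genes described here (zen, zen2, tup, pnr, ush, Doc1, Doc2, Doc3, Ance and peb) are active in the dorsal ectoderm and amnioserosa of the Drosophila melanogaster embryo, and were taken by symbol from the 17753 genes of a GRO-seq count table. In GRO-seq, nuclei extend the RNA they are already making in the presence of a labelled nucleotide, so that reads come from engaged polymerases rather than from stored RNA. Embryos were hand-picked at stage 5, when the zygotic genome is activated, and many embryos were pooled into each library of nuclear RNA. DomKD embryos (genotype t216) came from mothers expressing an shRNA against both isoforms of domino, whose protein is the ATPase that exchanges H2A.Z into nucleosomes, and Ctrl embryos (genotype t180) from mothers of the control RNAi line, both with a Gal4 driver active in the maternal germline. There were 3 DomKD libraries (A1, A2 and B1) and 3 Ctrl libraries (A1, B1 and B2), named by the letter and number in their titles, and values by library follow that order throughout. The titles do not say what A and B mean. They were taken here as 2 sets of libraries and put in the model as a block, and the sets were not balanced between the groups. The comparison asks how nascent transcription of these genes differed when maternal Domino was depleted.

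The dorsal side of the early embryo is patterned by a BMP gradient. The ligands Dpp and Scw are carried towards the dorsal midline by Sog and Tsg and released there by the protease Tld, and the highest signalling, at the midline, specifies the amnioserosa, an extraembryonic tissue that is needed for germ band retraction and dorsal closure. Lower signalling, further out, gives dorsal epidermis. The genes described here answer to this gradient in bands of different width, and most of them encode transcription factors.

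Before the values, the promoters are shown, because 7 of the 10 genes shared a short word close to their annotated start. TAGteam words (CAGGTAG and its variants, which here were TAGGTAG as well as CAGGTAA and also CAGGCAG, on either strand) are bound by Zelda, the pioneer factor of zygotic genome activation. Such a word lay between 250 bases before and 50 bases after the start of the canonical transcript in zen, zen2, tup, Doc1, Doc2, Doc3 and Ance, and in 8.17% of 13825 promoters of protein-coding genes. With the window taken from 1000 bases before the start, pnr was added, making 8 of the 10 genes against 27.3% of promoters. No word was found in either window of ush or peb. Only the canonical start of each gene was searched. There are 4 annotated starts for ush, 3 each for pnr and Ance, and 2 each for zen2 and Doc1. These are matches of letters in the reference genome (dm6), not measured binding, and the list was not chosen at random. The windows of both zen genes and of the Doc trio are printed in full, read along the gene's strand with the TAGteam word in capitals, because each is a cluster of related genes.
zen promoter, chr3R:6754145-6754444, minus strand: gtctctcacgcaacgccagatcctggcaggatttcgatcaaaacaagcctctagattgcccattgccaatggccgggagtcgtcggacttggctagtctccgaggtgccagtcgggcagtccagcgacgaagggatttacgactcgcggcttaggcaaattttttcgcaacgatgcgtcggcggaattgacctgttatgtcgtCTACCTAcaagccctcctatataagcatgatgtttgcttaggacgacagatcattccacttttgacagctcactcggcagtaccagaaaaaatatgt
zen2 promoter, chr3R:6744087-6744386, minus strand: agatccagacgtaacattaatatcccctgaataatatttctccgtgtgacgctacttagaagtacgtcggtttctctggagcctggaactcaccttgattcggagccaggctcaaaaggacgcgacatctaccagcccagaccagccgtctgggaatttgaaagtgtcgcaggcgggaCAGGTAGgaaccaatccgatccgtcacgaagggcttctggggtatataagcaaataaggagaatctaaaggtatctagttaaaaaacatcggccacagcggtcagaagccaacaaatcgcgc
Doc1 promoter, chr3L:9041125-9041424, plus strand: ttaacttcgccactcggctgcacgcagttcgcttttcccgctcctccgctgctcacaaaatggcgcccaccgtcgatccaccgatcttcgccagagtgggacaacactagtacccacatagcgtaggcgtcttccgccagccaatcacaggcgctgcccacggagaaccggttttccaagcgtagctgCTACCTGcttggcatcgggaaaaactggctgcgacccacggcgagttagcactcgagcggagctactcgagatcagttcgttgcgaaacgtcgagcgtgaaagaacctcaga
Doc2 promoter, chr3L:9019197-9019496, minus strand: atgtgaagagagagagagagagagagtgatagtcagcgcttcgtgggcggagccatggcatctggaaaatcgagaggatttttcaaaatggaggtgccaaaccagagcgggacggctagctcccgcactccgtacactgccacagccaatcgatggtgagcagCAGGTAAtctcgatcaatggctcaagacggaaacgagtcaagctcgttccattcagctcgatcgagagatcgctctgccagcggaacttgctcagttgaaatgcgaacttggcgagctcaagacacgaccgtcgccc
Doc3 promoter, chr3L:9004946-9005245, plus strand: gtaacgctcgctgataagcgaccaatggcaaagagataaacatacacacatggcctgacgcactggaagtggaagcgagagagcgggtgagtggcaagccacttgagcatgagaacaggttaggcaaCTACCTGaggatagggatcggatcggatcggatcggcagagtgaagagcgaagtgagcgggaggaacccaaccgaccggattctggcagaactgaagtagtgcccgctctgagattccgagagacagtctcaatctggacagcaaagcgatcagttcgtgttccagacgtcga
Counted from the start, the word lay at -47 in zen, -72 in zen2, -62 in Doc1, -87 in Doc2 and -123 in Doc3, and on the opposite strand (where it reads as its reverse complement) in zen, Doc1 and Doc3. The zen2 gene carried 3 more words further upstream, at -581, -577 and -727, the first and second of which overlap, whereas zen had 1 more at -296 and Doc2 1 more at -727. Both zen windows also held the word TATATAAG within 40 bases before the start, which 1.08% of promoters did, a word looked for only after these windows had been read.
The remaining words are shown with 10 bases on either side, to let the different spellings be compared.
tup site: actgctctcgCAGGCAGaatgtatctg
Ance site: atataattgaTTACCTGaaagtactct
pnr site: ctacaaatttTTACCTGtcagccaagt
The tup word lay at -113 (2L, 18881368 to 18881374), the Ance word at -217 (2L, 13906217 to 13906223) and the pnr word at -259 (3R, 16034327 to 16034333). The tup word was CAGGCAG, and those of Ance and pnr were CAGGTAA on the opposite strand. The DRE word TATCGATA, typical of housekeeping promoters, was in none of the 10 windows of 300 bases and in 8.85% of all promoters. The GAGA-factor word GAGAG was in 8 of the 10 windows (not in those of zen2 and Doc1) and in 30.2% of all promoters.

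**Figure D1:**
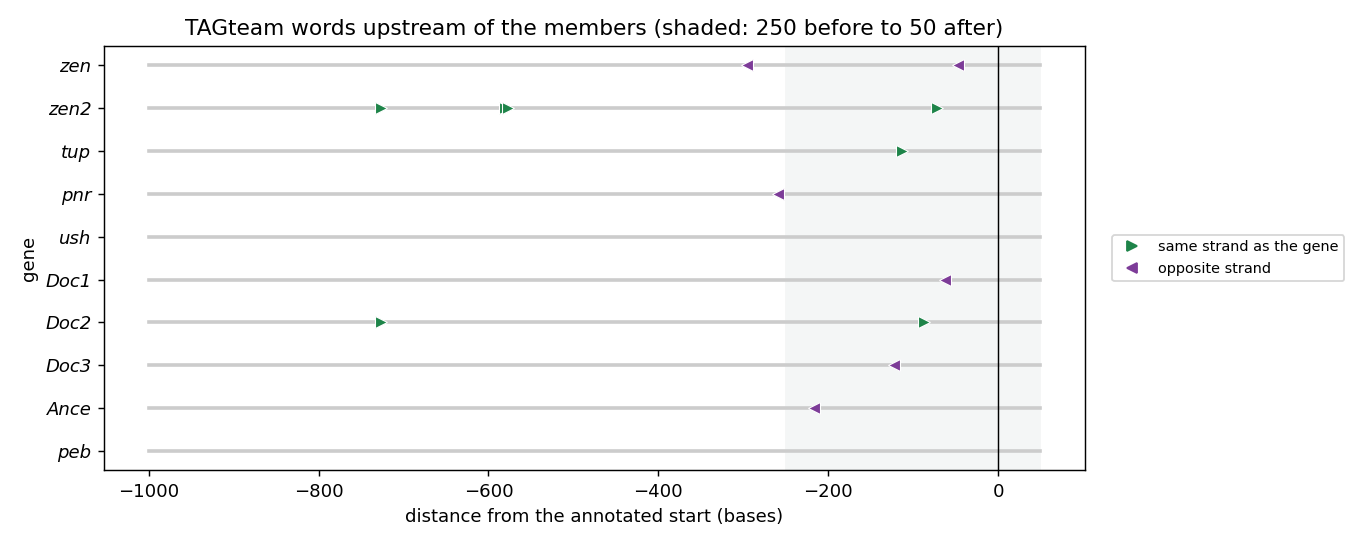
Positions of TAGteam words between 1000 bases before and 50 bases after the canonical annotated start of each of the 10 genes (x axis, bases from the start), with the direction of each triangle giving the strand. Other annotated starts were not searched. Words lie in the shaded window of 7 genes, and ush and peb have none in either window.

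Total counts ranged between 10660708 and 15790602 in DomKD libraries and between 12487166 and 24537992 in Ctrl libraries, and 564 to 1014 tested genes were at 0 in DomKD libraries against 162 to 326 in Ctrl libraries. Values are given as CPM, read counts relative to library size, scaled by TMM, which sets the bulk of genes equal between libraries. In bulk samples like these, fewer cells transcribing a gene and less transcription per cell cannot be told apart. Each of the 10 genes had at least 637 reads in every library. Nascent reads of dom itself were 664.8, 690.5 and 965.6 CPM in DomKD, against 847.7, 811.4 and 707.3 CPM in Ctrl (log2 fold change 0.01 ± 0.18, adjusted p = 0.973, edgeR), which measures the embryo's own transcription and not the maternal RNA that the shRNA targets. The label dorsal ectoderm and amnioserosa names a part of the embryo, and the libraries were of whole embryos: mesoderm and neurogenic ectoderm genes were transcribed too, with summed levels of 2062 to 2398 CPM in DomKD and 907 to 1319 CPM in Ctrl for 5 mesoderm genes, and of 5321 to 6528 CPM in DomKD and 2524 to 3762 CPM in Ctrl for 7 neurogenic ectoderm genes, of which ind was listed at 0 throughout.

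Of the 10 genes, 7 rose in DomKD embryos under TMM scaling (zen, Doc1, zen2, peb, tup, Doc3 and Ance), none fell, and pnr, Doc2 and ush did not pass the threshold (adjusted p of 0.05, edgeR's quasi-likelihood test with set in the model). Over all 10429 genes tested, 21.7% passed, with 12.1% higher and 9.64% lower. At an unadjusted p under 0.05, 9 were higher and 0 lower in edgeR, beside 35.1% of tested genes in either direction. DESeq2 called 9 higher and 0 lower after adjustment, beside 16.1% and 11.4% of tested genes. The 10 genes had a median log2 fold change of 0.76, beside -0.07 over all tested genes. This direction held under RLE, upper-quartile and total-count scaling for every gene except ush (which was at -0.19 by total counts), but scaling on Zelda targets, the kind of scaling the study used, put 7 of the 10 below 0. In 6 genes (zen, tup, pnr, Doc1, Doc3 and Ance) every DomKD library lay above every Ctrl library in TMM-scaled CPM, which was so for 17.2% of all tested genes.

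**Figure D2:**
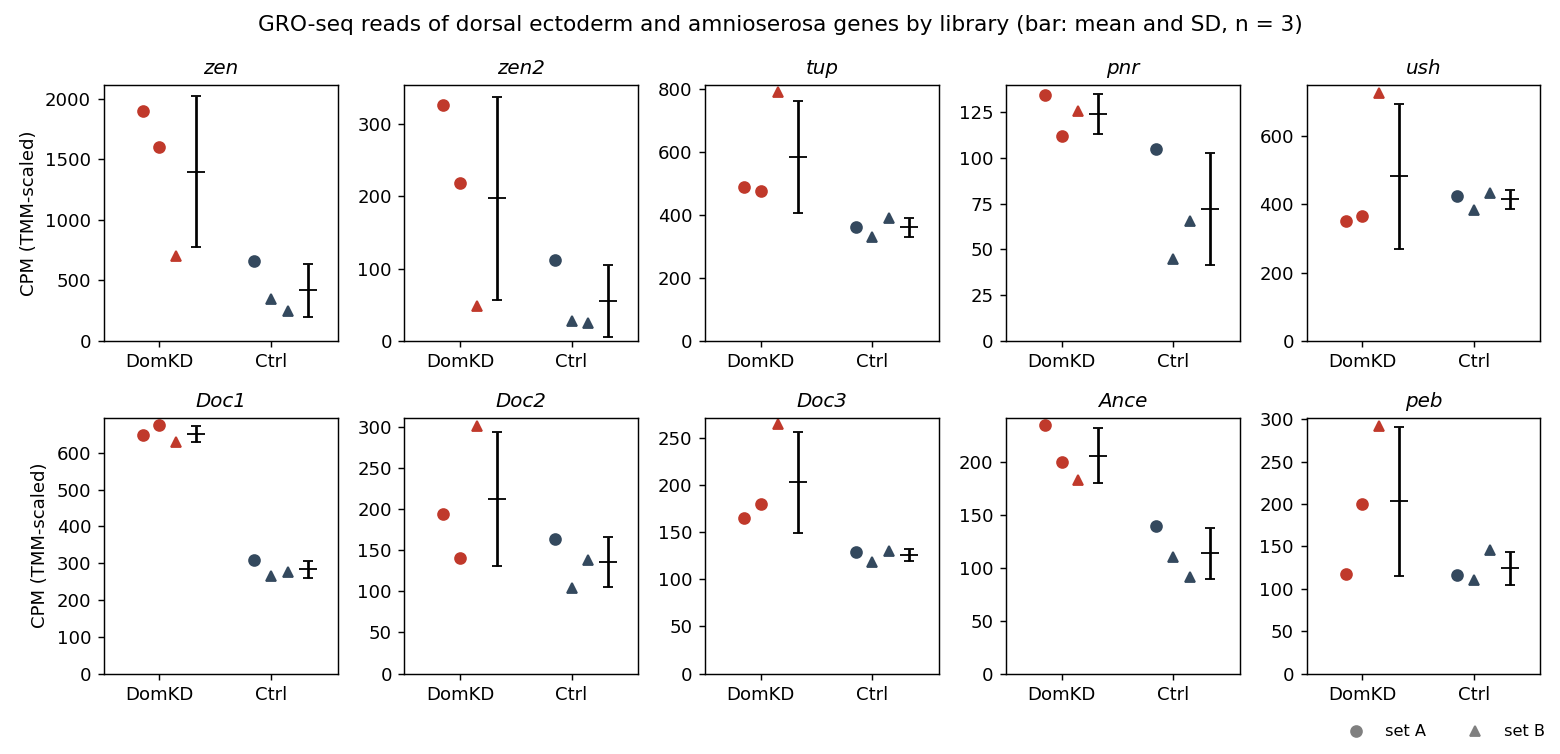
TMM-scaled CPM (y axis, from 0) of each of the 10 genes in 3 DomKD libraries (red) and 3 Ctrl libraries (blue), with circles for set A, triangles for set B, and bars for mean and SD. All DomKD points lie above all Ctrl points for zen, tup, pnr, Doc1, Doc3 and Ance, while zen and zen2 are highest in set A of either group and tup, ush, Doc2, Doc3 and peb are highest in DomKD B1; with scaling on Zelda targets 7 of the 10 fold changes turn below 0.

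Among the homeobox genes, and among all 10, zen changed most. zen (FBgn0004053, 3R, 6752864 to 6754194, minus strand, 2 exons) encodes a homeodomain factor required to form the amnioserosa. Its level was 1898, 1596 and 699 CPM in DomKD, against 660.4, 342.3 and 244.7 CPM in Ctrl. The groups did not overlap, but DomKD B1 was only slightly above Ctrl A1, and within each group the set A libraries were the highest. The fold change was 2.51 (log2 1.33 ± 0.18 SE, n = 3 each, adjusted p = 0.000959, edgeR), with log2 values of 1.40 within set A and 1.27 within set B.

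zen2 (FBgn0004054, 3R, 6743135 to 6744136, minus strand), a paralog of zen for which no essential role is known, lies 8727 bases from it. It had 326, 218.6 and 47.62 CPM in DomKD, against 112.5, 27.72 and 25.12 CPM in Ctrl. The groups overlapped across sets, since Ctrl A1 exceeded DomKD B1, and did not overlap within a set. The log2 fold change was 1.07 ± 0.20 (adjusted p = 0.00425, edgeR), 1.25 within set A and 0.85 within set B. Without set in the model it was 1.84 and not past the threshold (adjusted p = 0.187, edgeR).

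tup (FBgn0003896, 2L, 18859507 to 18881261, minus strand, 9 exons), also called islet, encodes a LIM-homeodomain factor of the amnioserosa and dorsal epidermis. Its level was 488, 475.8 and 789.6 CPM in DomKD, against 362.4, 328.5 and 390 CPM in Ctrl. Unlike zen it was highest in DomKD B1, while its 3 Ctrl libraries lay close together. In log2 terms the change was 0.77 ± 0.18 (adjusted p = 0.0111, edgeR), with 0.41 within set A and 1.14 within set B. The microRNA gene mir-4946 lies inside tup on the same strand, so reads over it cannot be assigned to either gene alone.

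The GATA factor gene and that of its partner did not pass. pnr (FBgn0003117, 3R, 16026079 to 16041796, plus strand) encodes a GATA factor of the dorsal ectoderm. It had 134.4, 112.3 and 125.8 CPM in DomKD, against 105.1, 44.89 and 65.82 CPM in Ctrl. The DomKD libraries were close to one another (124.1 ± 11.1 CPM, SD) and the Ctrl libraries were not (71.9 ± 30.6 CPM), with Ctrl A1 nearest to DomKD. The log2 fold change of 0.71 ± 0.23 just missed the threshold (adjusted p = 0.0513, edgeR), with 0.22 within set A against 1.21 within set B. It passed under RLE scaling (adjusted p = 0.0353, edgeR) and in DESeq2 (adjusted p = 0.029), and over the alternative fits its adjusted p ranged between 0.00425 and 0.693.

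ush (FBgn0003963, 2L, 476220 to 540560, plus strand) encodes a FOG-family zinc finger protein that binds Pnr and modulates its activity. It had 351.4, 366.8 and 726.6 CPM in DomKD, against 425.4, 383.3 and 433.8 CPM in Ctrl. The groups overlapped, with a single DomKD library above Ctrl and the other two below it. The log2 fold change was 0.29 ± 0.21 (adjusted p = 0.359, edgeR), with -0.24 within set A and 0.83 within set B, the only opposite signs among the 10 genes. A lncRNA gene (lncRNA:CR46258) overlaps ush on the same strand, and the cbt gene lies on the opposite strand, which strand-specific counting keeps apart.

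The T-box genes Doc1, Doc2 and Doc3 lie close together on 3L, within 39847 bases, with CG5194 between Doc3 and Doc2, and together are required in the amnioserosa and dorsal mesoderm, where their roles overlap. Doc1 (FBgn0028789, 9041375 to 9045042, plus strand) varied little within each group, with 649.5, 675.3 and 630.5 CPM in DomKD, against 308.5, 264.8 and 277.3 CPM in Ctrl. The groups were far apart in both sets. Its fold change was 2.23 (log2 1.16 ± 0.15, adjusted p = 0.000767, edgeR), with log2 values of 1.10 within set A and 1.22 within set B.

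Doc2 (FBgn0035956, 9012686 to 9019246, minus strand) had 194.7, 140.8 and 301.7 CPM in DomKD, against 164.2, 103.9 and 138.6 CPM in Ctrl. The groups overlapped, with DomKD A2 below Ctrl A1 and DomKD B1 far above all others. The log2 fold change was 0.68 ± 0.26 (adjusted p = 0.0819, edgeR), with 0.01 within set A and 1.33 within set B.

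Doc3 (FBgn0035954, 9005196 to 9007249, plus strand) had 164.6, 180.2 and 264.3 CPM in DomKD, against 129.3, 118.3 and 130 CPM in Ctrl. The groups did not overlap and the Ctrl libraries were close together. On the log2 scale it differed by 0.75 ± 0.18 (adjusted p = 0.0112, edgeR), with 0.41 within set A and 1.09 within set B.

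Ance and peb complete the list. Ance (FBgn0012037, 2L, 13905645 to 13909212, plus strand) encodes a peptidase related to angiotensin-converting enzyme and made in the amnioserosa. It had 234.3, 199.3 and 183.1 CPM in DomKD, against 139.3, 110 and 90.78 CPM in Ctrl. The groups did not overlap, and the order of sets was that of zen with a much narrower range. Ance differed by a log2 value of 0.75 ± 0.16 (adjusted p = 0.00773, edgeR), with 0.63 within set A and 0.87 within set B.

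peb (FBgn0003053, X, 4617564 to 4627206, plus strand), also called hindsight, encodes a zinc finger factor that maintains the amnioserosa during germ band retraction. It had 117.1, 199.5 and 292.4 CPM in DomKD, against 116.6, 109.8 and 145.9 CPM in Ctrl. The groups overlapped, since DomKD A1 was level with Ctrl A1, and the 3 DomKD libraries were spread out. Its change was 0.82 ± 0.24 on the log2 scale (adjusted p = 0.0287, edgeR), with 0.39 within set A and 1.21 within set B. It did not pass in 10 of 16 alternative fits.

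**Figure D3:**
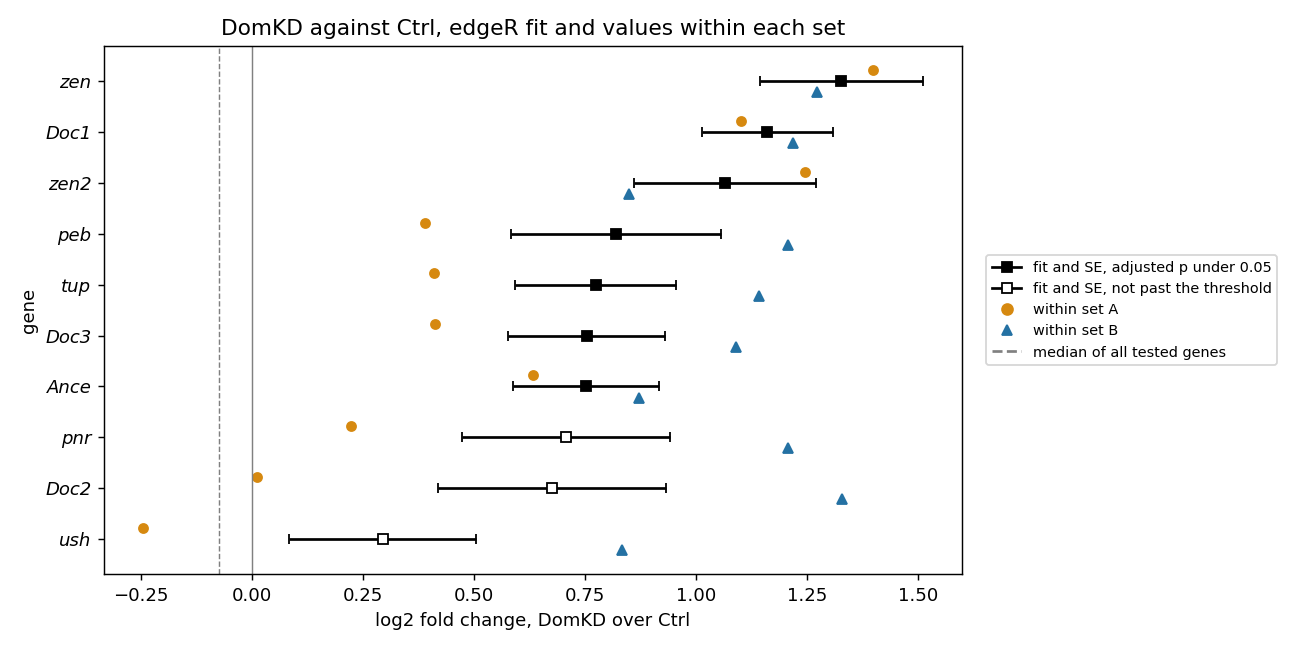
Log2 fold change, DomKD over Ctrl (x axis), of each gene with its SE under TMM scaling (squares, filled where the adjusted p was under 0.05) and within set A (circles) and set B (triangles). Only ush lies on opposite sides of 0 in the 2 sets, zen, zen2, Doc1 and Ance have set values near one another, and tup, pnr, Doc2, Doc3 and peb are smaller in set A; with scaling on Zelda targets 7 of the 10 squares turn below 0.

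Per kilobase of gene, zen stood highest in both groups, at 1050 ± 468.6 CPM per kb in DomKD and 312.4 ± 163.3 CPM per kb in Ctrl (SD, n = 3 each), at percentile 99 of tested genes in DomKD and 98.5 in Ctrl. In DomKD embryos the order then ran zen2, Doc1, Doc3, Ance, Doc2, tup, peb, pnr and ush, and the libraries of neighbours overlapped for zen2 and Doc1, Doc2 and tup, tup and peb, and pnr and ush. In Ctrl embryos it ran Doc1, Doc3, zen2, Ance, Doc2, tup, peb, ush and pnr, with overlap for Doc3 and zen2, zen2 and Ance, Doc2 and tup, tup and peb, and ush and pnr. At the lower end were ush, at 7.49 ± 3.30 CPM per kb in DomKD and 6.44 ± 0.42 in Ctrl, and pnr, at 7.90 ± 0.71 in DomKD and 4.58 ± 1.94 in Ctrl. Gene length here includes introns, and both pnr and ush have several annotated starts, so the level of a long gene is spread over sequence that only some transcripts cover.

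The genes fell into patterns by set that the comparison of groups did not show. In DomKD embryos, the mean of set A divided by set B was 5.72 for zen2 and 2.5 for zen, and in Ctrl embryos it was 4.26 for zen2 and 2.25 for zen. The summed level of 7 genes transcribed earliest in the embryo (sisA, sc, halo, bnk, nullo, Sry-alpha and term) moved the same way, with 9508, 8413 and 3387 CPM in DomKD, against 3398, 1576 and 1059 CPM in Ctrl, ratios of 2.65 in DomKD and 2.58 in Ctrl. Sry-alpha was listed at 0 throughout, and all of the other 6 rose in DomKD by TMM, of which 2 rose with scaling on Zelda targets, although 5 of these 6 belong to the targets scaled on. For 5 genes (ush, peb, Doc2, tup and Doc3) the DomKD ratio ran the other way, at 0.49, 0.54, 0.56, 0.61 and 0.65 in that order, with Ctrl ratios between 0.91 and 1.35. The summed level of 8 genes listed for later stages (pros, elav, ase, nerfin-1, CrebA, how, bap and srp) was also highest in DomKD B1. It was 3547, 4017 and 5053 CPM in DomKD, against 2683, 3057 and 2762 CPM in Ctrl. Most of the sum came from how, pros, srp and elav, with Ctrl means of 1385, 505.8, 477.7 and 404.9 CPM. These were thus already transcribed at stage 5, and the sum is not a clean marker of later stages. Taken singly, how, pros, srp and nerfin-1 were highest in DomKD B1. CrebA was highest in DomKD A1, ase and bap in DomKD A2, and elav in Ctrl B1. By TMM 4 of the 8 rose and none fell, with a median of 0.95, beside 12.1% and 9.64% of all tested genes. With scaling on Zelda targets 1 rose and 2 fell, beside 0.863% and 46.5%. Doc1, Ance and pnr were nearly level across the DomKD sets, with ratios of 1.05, 1.18 and 0.98. Their Ctrl ratios were 1.14, 1.39 and 1.90, so pnr was not level across the Ctrl sets. The part of the early and later genes' levels in the DomKD difference of the 10 genes was not tested.

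**Figure D4:**
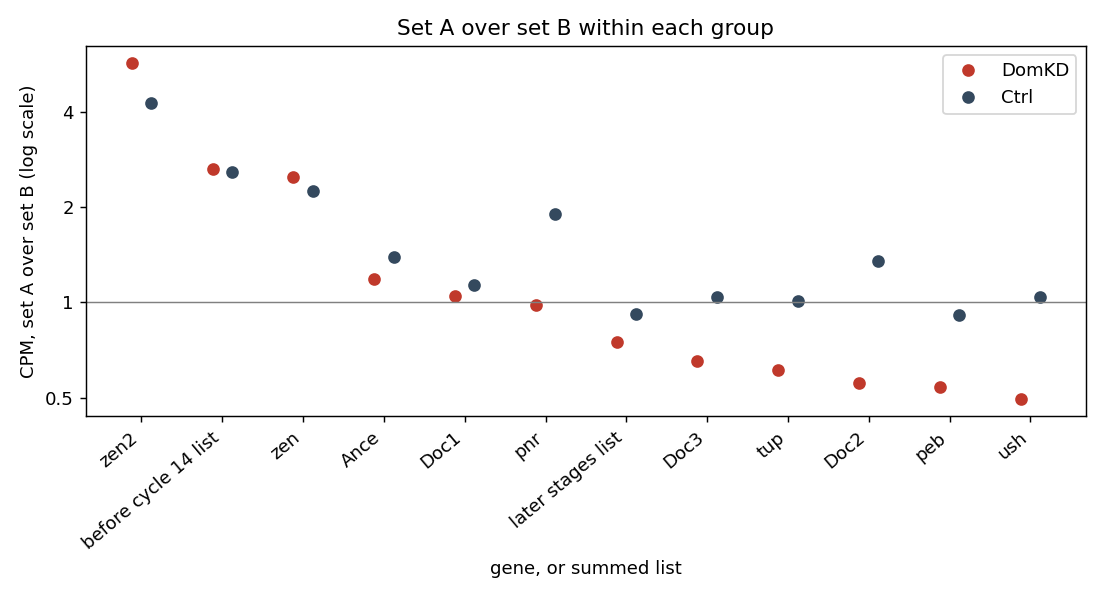
Ratio of mean CPM in set A over set B (y axis, log scale) within DomKD (red) and within Ctrl (blue), for the 10 genes and for the summed lists of early and later genes. zen and zen2 lie beside the early list, above 2 in both groups, and ush, peb, Doc2, tup and Doc3 lie below 1 in DomKD, with Ctrl ratios nearer 1.

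A test of whether the DomKD difference itself varied with set passed the threshold for none of the 10 genes and for 0 of 10429 genes (edgeR, interaction of group and set, with 608 genes or 5.83% at an unadjusted p under 0.05). Unadjusted, the interaction p was 0.0043 for ush, 0.012 for Doc2, 0.0319 for tup, 0.0412 for Doc3 and 0.0497 for pnr in edgeR, and the adjusted values of these 5 were all 0.815. In 8 of the 10 genes the difference was larger in set B than in set A. The share of all tested genes with this order was not computed, so it cannot be called particular to them. In 9 of the 10 the difference was above 0 in both sets, as for 33.6% of all tested genes. DomKD B1 was the single DomKD library of its set, and Ctrl A1 the single Ctrl library of its set. The interaction fit left 2 residual degrees of freedom, so it could easily miss a difference between sets. Without DomKD B1 none of the 10 genes and 9 genes in all passed (0.0574% of tested genes higher). At an unadjusted p under 0.05, 4 of the 10 were then higher in edgeR, beside 24.2% of tested genes in either direction. The median of the 10 in that fit was 0.43 (zen 1.40, adjusted p = 0.0612, and Doc1 1.10, adjusted p = 0.055, edgeR). Without Ctrl A1, 5 of the 10 rose (4.38% of tested genes did) and the median was 1.10. Without a set term 3 of the 10 rose (8.57% of tested genes), and with the replicate number as a block in place of set 2 did (5.85%).

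Because scaling moves all genes together, each log2 fold change was set beside the shift of all tested genes. By total counts 2 of the 10 genes rose (zen, 0.85, and Doc1, 0.68), none fell, and the median was 0.28, while all tested genes had a median of -0.56 and 5.16% of them rose. Scaled on 37 Zelda targets that include none of the 10 genes, none rose, ush fell by 0.72 on the log2 scale (adjusted p = 0.00473, edgeR), and the median was -0.24, while all tested genes had a median of -1.08 and 46.5% of them fell. At an unadjusted p under 0.05, 1 of the 10 was higher and 1 lower there in edgeR, beside 53.2% of tested genes in either direction. In DESeq2 with size factors from these targets and no set term, none of the 10 rose and ush alone fell. Of all tested genes, 0.738% rose and 47% fell in that fit. At an unadjusted p under 0.05, 0 of the 10 were higher in it, beside 53.3% of tested genes in either direction. In edgeR with scaling on Zelda targets zen was at 0.33, Doc1 at 0.15 and zen2 at 0.06, and the other 7 lay between -0.72 and -0.19. The median of the 10 genes minus that of all tested genes was 0.84 under TMM. Another scaling shifts all genes by nearly the same amount, so that this distance could not change with it, whereas the sign of the change of most of the 10 genes did. Of those 37 Zelda targets, 34 rose under TMM scaling, beside 12.1% of all tested genes, with a median log2 fold change of 1.00. The 10 genes were kept out of the targets by choice, so their absence does not make the targets independent of them. Because the 10 had a similar TMM median of 0.76, scaling on the targets brings them near 0 by construction. The Zelda gene zld itself had 3257, 3243 and 2509 CPM in DomKD, against 1849, 1208 and 872.4 CPM in Ctrl (log2 1.04 ± 0.19 by TMM, adjusted p = 0.00312, edgeR).

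**Figure D5:**
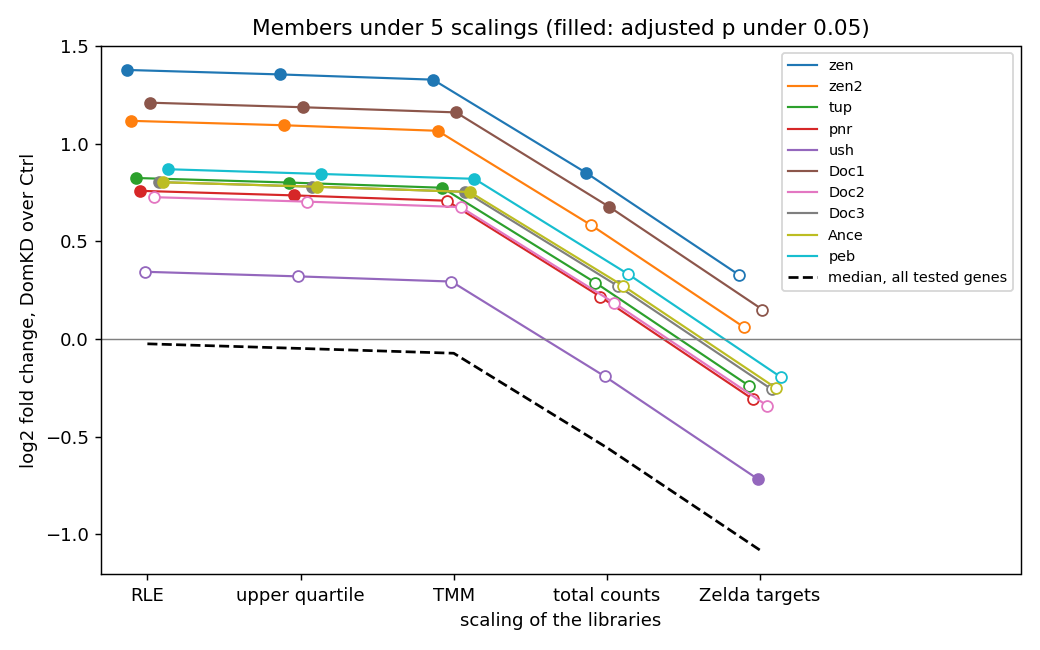
Log2 fold change, DomKD over Ctrl (y axis), of each of the 10 genes under 5 scalings of the libraries, filled where the adjusted p was under 0.05, with the median of all tested genes as a dashed line. The points and the dashed line shift together from one scaling to the next, and 10 are above 0 by RLE, upper quartile and TMM, 9 by total counts and 3 by Zelda targets.

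Within a library, the ratio of one paralog to another does not depend on scaling. The log2 level of zen2 per kilobase minus that of zen was -2.13, -2.46 and -3.46 in DomKD, and -2.14, -3.21 and -2.87 in Ctrl. The means were -2.68 ± 0.69 in DomKD and -2.74 ± 0.55 in Ctrl, a difference of 0.06 (exact permutation test, two-sided p = 0.9, adjusted 0.9), well inside the spread of the libraries. The permutation ignored set, which was not balanced between the groups, so the pooled differences mix set with group. Within set A the difference of zen2 minus zen was -0.15, opposite in sign to the pooled value, as it was within set B. Doc1 minus Doc3 was 1.14, 1.07 and 0.42 in DomKD, and 0.42, 0.32 and 0.26 in Ctrl. The difference of 0.54 had the smallest p of the 4 pairs compared, though not the largest size. It came with p = 0.1 (adjusted 0.4) in the exact permutation test, the smallest that 3 against 3 libraries allow. DomKD B1 and Ctrl A1 were equal to 2 decimals. Within set A the difference was 0.69, and within set B only 0.13. Doc1 minus Doc2 was 2.53 ± 0.60 in DomKD and 1.92 ± 0.23 in Ctrl (exact permutation p = 0.2, adjusted 0.4), and Doc3 minus Doc2 was 1.65 ± 0.33 in DomKD and 1.59 ± 0.27 in Ctrl (exact permutation p = 0.7, adjusted 0.9). All but Doc1 minus Doc3 changed sign within set B, where zen2 minus zen differed by -0.42, Doc1 minus Doc2 by -0.11 and Doc3 minus Doc2 by -0.24.

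Of 18 BMP pathway genes tested, 11 rose and 5 fell in DomKD by TMM, beside 12.1% and 9.64% of all tested genes. With scaling on Zelda targets, which include none of the 18, 4 rose and 6 fell, beside 0.863% and 46.5%, so that the share that fell was below that of all genes. Without a set term 10 rose and 2 fell, beside 8.57% and 6.82% of all tested genes. With the replicate block 9 rose and 1 fell, beside 5.85% and 4.08%. Without Ctrl A1 8 rose and 0 fell, beside 4.38% and 1.81%. Without Ctrl B1 11 rose and 2 fell, beside 8.63% and 3.88%. Without Ctrl B2 11 rose and 1 fell, beside 9.14% and 3.91%. Without DomKD B1 none of the 18 passed in either direction (0.0287% of all tested genes fell). The ligand gene dpp had 1590, 1526 and 1225 CPM in DomKD, against 718, 549.3 and 447.5 CPM in Ctrl (log2 1.21 ± 0.16, adjusted p = 0.000872, edgeR). The second ligand, scw, changed by 2.05, and spanned 914.7, 363.8 and 40.9 CPM in DomKD, against 121, 12.82 and 12.83 CPM in Ctrl, with more spread between sets than between groups. The extracellular transport genes sog (0.83), tsg (1.63) and cv-2 (0.91), the proteases tld (1.52) and tok (1.22), the type I receptor tkv (1.01), the nuclear factors shn (1.55) and brk (0.83) and the inhibitory Smad Dad (1.80) rose on the log2 scale as well. By TMM, with the set in the model, the genes that fell were the ligand gbb (-0.71), the type I receptor sax (-1.03), the type II receptor put (-0.80) and the Smads Mad (-0.61) and Smox (-1.06). The receptor genes wit (-0.97, at most 99 reads) and babo (-0.14) did not pass. The median of the 18 was 0.87.

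Other genes of the dorsal ectoderm gave counts like those of the 10. Of 10 listed, 8 rose by TMM and none fell, with a median of 0.79, beside 12.1% and 9.64% of all tested genes. With scaling on Zelda targets 1 rose and 1 fell, beside 0.863% and 46.5%. Those that rose were Dtg (1.50 on the log2 scale), the TNF ligand egr (1.24), the tyrosine kinase Btk (1.05), cv-2 (0.91), the Fos gene kay (0.81), the HLH inhibitor emc (0.78), Atx-1 (0.67) and the bHLH gene net (0.53). C15 (-0.14), a homeobox gene of the amnioserosa, and EDTP (0.04) did not pass, and C15 had only 4.57 to 19.6 CPM in any library. In comparison, 4 of 5 mesoderm genes and 5 of 6 tested neurogenic ectoderm genes rose by TMM, with medians of 0.96 and 0.83, and with scaling on Zelda targets none rose and 1 of each list fell. Of these genes, 2 of the 5 and 3 of the 6 belong to the targets scaled on, which sets their values near 0. The lists overlap, since cv-2 and the neurogenic ectoderm genes sog and brk are also counted among the BMP pathway genes above.

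Genes next door were read to see whether whole neighbourhoods differed. Next to zen, bcd, the maternal anterior determinant, lies 1647 bases away and rose by TMM at a low level (25.98, 16.32 and 16 CPM in DomKD, against 6.949, 1.792 and 2.551 CPM in Ctrl, log2 2.24 ± 0.49, adjusted p = 0.00809, edgeR). Of 6 tested pole cell and maternal RNA genes, bcd alone passed. Their median was -0.08, and 0.97 without a set term. The genes osk (0.45) and vas (-0.81) did not pass, and both had 0 reads in DomKD B1. Within set A they were at 2.09 and 1.50, and within set B at -1.60 and -1.75. Whether the reads of bcd, osk and vas came from new transcription or from stored RNA was not tested. Next to Ance, Smg5, a gene of RNA surveillance, rose by 1.09 ± 0.18 (adjusted p = 0.00177, edgeR) 983 bases away, whereas Ance-2, 120 bases beyond the other end, was at 0.55 and did not pass (adjusted p = 0.127, edgeR). Next to ush, MED15 (49 bases away) was at -0.69 and lwr (38 bases away) at -0.12, neither past the threshold. The other tested neighbours (CG34297, pb, ssp3, GATAe, Jhbp4, CG5194, Argk2, CG5087 and Alms1b) did not pass, most of them with few reads, and mRpL13 and CG12684 were listed at 0.

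The genes closest to the average profile of the 10 were sought among 7366 other tested genes averaging at least 100 counts, by the root mean square distance of log2 CPM centred over the 6 libraries. The 5 nearest were tRNA:Thr-AGT-2-1 (0.066), emc (0.074), ND-B15 (0.083), the gene FBgn0004364, for which the annotation used here gives no symbol (0.094), and hbn (0.095). Of these, emc had 1582, 1607 and 1584 CPM in DomKD, against 1054, 783.4 and 847.7 CPM in Ctrl. Among the 10 genes themselves, Ance (0.148), Doc1 (0.190) and pnr (0.196) were nearest to the average, and ush (0.542), zen (0.669) and zen2 (1.09) were farthest from it.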

How the data were processed

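Drosophila melanogaster stage 5 embryos were profiled by GRO-seq in 3 DomKD and 3 Ctrl libraries. The authors deposited raw read counts for each gene in each library, and gene lengths. Reads had been trimmed with cutadapt 2.5 and UMI-tools 1.0, aligned to dm6 with Bowtie2 in local mode, and counted per gene and strand with featureCounts by the authors, without removing duplicates, so reads are not independent molecules. Deposited length equalled the annotated gene span for 99.31% of matched genes. Of 17753 genes, 17626 were matched to the annotation of the same assembly, and 99.88% of start codons checked read ATG.

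Genes averaging at least 10 counts were tested with edgeR 4.0.16 in R 4.3.3 (quasi-likelihood, robust, two-sided, TMM, set and group in the model, Benjamini-Hochberg over 10429 genes, threshold 0.05). The SE is the log2 fold change divided by the square root of F, and a prior count of 2 was added before taking log2 CPM. Within-set values are differences of mean log2 CPM. Alternatives were other scalings, count filters and models, DESeq2 1.42.0 and each library left out. The study scaled on its own Zelda target set, which is not used here, and a list of 37 tested targets written from general knowledge took its place. Paralog differences were tested by exact permutation over 20 arrangements, with a smallest two-sided p of 0.1, adjusted over 4 pairs. The permutation did not take set into account. The edgeR fit was tested on simulated counts. Promoter sequences were read from the dm6 reference around the canonical start.

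Named genes were the 10, dom, zld, BMP and dorsal ectoderm genes past the threshold, nearest protein-coding neighbours and the 5 genes with the most similar profile. Genes of the lists that did not pass were named after their values were seen. Members and lists were chosen with earlier results of these data known. Titles number the libraries as replicates and give them a letter, A or B, without saying what it means, and the study's methods call the replicates biological. Counts of the pairs of libraries differed by at least 33.6 times sampling noise, so each was counted once. The listed genes Med, nos, frs and h were not analysed here.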

Additional observations from a re-analysis of the deposited data

How the results depend on the processing

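All values are DomKD over Ctrl. Of 2264 genes past the threshold (1259 higher, 1005 lower), the count was 4941 (90 higher, 4851 lower) with Zelda-target scaling, 4979 with DESeq2 on Zelda-target size factors and no set term, and 1035 with the replicate number as a block in place of set, and leaving out 1 library gave 9 to 3082. It was 9 without DomKD B1, 647 without Ctrl A1, 1295 without Ctrl B1 and 1351 without Ctrl B2. Shared replicate numbers did not pair libraries, since deviations of same-numbered libraries correlated between -0.36 and 0.24. With total counts the split was 538 higher and 2747 lower. Of the 10 dorsal genes, 7 passed, against 2 by total counts, 1 by Zelda targets, 3 without a set term, 2 with the replicate block, 1 with DESeq2 on Zelda targets and 0 to 8 with 1 library left out. For the BMP pathway, 16 passed (11 higher, 5 lower), against 10 by Zelda targets, 10 with the replicate block, 8 with DESeq2 on Zelda targets and 0 to 16 with 1 library left out (8 without Ctrl A1). For other dorsal ectoderm genes, 8 passed, against 4 by total counts, 2 by Zelda targets, 1 with DESeq2 on Zelda targets and 0 to 8 with 1 library left out. The median of the 10 was 0.76, against 0.28 by total counts, -0.24 by Zelda targets, -0.38 with DESeq2 on Zelda targets, 0.41 within set A, 1.17 within set B and 0.43 to 1.10 with 1 library left out. By Zelda targets tup was at -0.24, pnr at -0.31, ush at -0.72, Doc2 at -0.34, Doc3 at -0.26, Ance at -0.25 and peb at -0.19, and with DESeq2 on Zelda targets tup was at -0.45, pnr at -0.30, ush at -0.91, Doc2 at -0.46, Doc3 at -0.46, Ance at -0.29 and peb at -0.45. ush was also at -0.19 by total counts, at -0.24 within set A and at -0.25 to 0.77 with 1 library left out. The difference of zen2 minus zen was -0.15 within set A, -0.42 within set B and -0.22 to 0.45 with 1 library left out, that of Doc1 minus Doc2 was -0.11 within set B, and that of Doc3 minus Doc2 was -0.24 within set B and -0.13 to 0.19 with 1 library left out. Scaling sets the bulk of genes or the Zelda targets equal by construction, and the data do not say which. The causes of the other changes were not tested. Leaving out DomKD B1 removes the DomKD side of set B and leaves 2 DomKD libraries against 1 Ctrl library of their set. Across 16 alternative fits the threshold was passed, always above 0, in 13 for Doc1, 12 for zen, 11 for Ance, 10 for tup and Doc3, 9 for zen2, 7 for pnr, 6 for peb and 4 for Doc2, and for ush in 2, both below 0. The 10 genes had 637 reads or more in every library, but with duplicates kept these reads are not independent molecules, and the counting error of molecules is not known.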
